A study of Mus musculus with 4 samples.

Results

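The maxillary and mandibular processes are the upper and lower outgrowths of the first pharyngeal arch, and their RNA was compared gene by gene in mouse embryos at stage e11.5. A gene was a member of the comparison where it reached 5 CPM (counts per 1000000 counts of a library) in either process and lay at least 2-fold apart between them after 0.5 CPM had been added to both levels. Of 43346 gene entries, 11846 reached 5 CPM, and 217 of these were higher in the mandibular and 106 in the maxillary library, which is 1.83% and 0.895% of the genes at that level. The libraries came from freshly dissected wild-type tissue of mixed cell types, with 1 library for each process. How many embryos were pooled, and of which strain, is not stated in the labels or the methods. Lateral and medial nasal libraries of the same stage took no part in choosing genes and are given as a further measurement of the same genes. The label of the medial nasal sample names the medial nasal process in its title and tissue but carries the abbreviation of the lateral one in brackets.

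Neural crest cells that enter the first arch form the skeleton and connective tissue of both jaws. In the lower, distal part of the arch, endothelin signalling through its receptor Ednra acts through the homeobox genes Dlx5 and Dlx6 and the basic helix-loop-helix gene Hand2 to give the crest a mandibular identity, while the upper part develops without this programme and uses other factors such as Pou3f3. The mandibular process also receives the muscle precursors of the jaw and tongue, and the maxillary process forms the cheek, the side of the upper lip and the palate shelves.

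With 1 library per process no difference could be set against a spread between replicates, so no p-value is given. Each fold is the ratio of the CPM levels with its 95% exact interval, which covers counting error only, and each log2 difference is the mandibular minus the maxillary value after 0.5 CPM was added. The maxillary library totalled 15385123 counts and the mandibular one 13680323, so that 5 CPM stood for 76.9 and 68.4 counts and 3 counts, the limit that a count of 0 allows, for 0.195 and 0.219 CPM. Of the 6 marker genes, Hand2, Dlx5 and Dlx6 were higher in the mandibular library and Pou3f3, Tbx15 and Lef1 in the maxillary library, but they were chosen with these values known and are no independent check of the labels. Both libraries held Xist, at 1092 and 1513 CPM, and the Y-linked genes Uty, Ddx3y, Eif2s3y and Kdm5d at 20.2 CPM or more, and none of these was called. Keratin, cadherin and claudin genes of the epithelium (0 of 22 tested members called, median log2 difference -0.30), genes of the endothelium (0 of 12, median 0.04) and of red blood cells (0 of 10, median -0.35) gave no member in either direction. Lists of this size hold few or no members at the shares over all genes, 1.83% mandibular and 0.895% maxillary. In such bulk tissue, fewer cells of a type and less RNA per cell cannot be told apart.

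Promoter sequences are shown for 3 genes at which neighbouring RNAs differed together. The windows, from RefSeq on GRCm38.p6, run 5′ to 3′ on the gene's own strand over 300 bases, with the transcription start at base 251. Capitals mark the letters CATCTG or CAGATG (an E-box of the kind that Hand proteins and their partners bind), TAATTA (a core of homeodomain sites), TATAAA or TTTATA, the element that lies just before many start sites, and GGGCGG or CCGCCC, the GC box, each searched on both strands. The Hand2 window, chr8:57320733-57321032 on the plus strand, shares 223 bases with that of the antisense RNA Hand2os1 on the opposite strand, and both RNAs were higher in the mandibular library. The Pou3f3 window, chr1:42695518-42695817 on the plus strand, lies beside the start of the noncoding RNA Pantr1, and both were higher in the maxillary library. The window of the noncoding RNA Meg3, chr12:109540746-109541045 on the plus strand, lies within the imprinted stretch described further on, which was higher in the mandibular library throughout.
Hand2: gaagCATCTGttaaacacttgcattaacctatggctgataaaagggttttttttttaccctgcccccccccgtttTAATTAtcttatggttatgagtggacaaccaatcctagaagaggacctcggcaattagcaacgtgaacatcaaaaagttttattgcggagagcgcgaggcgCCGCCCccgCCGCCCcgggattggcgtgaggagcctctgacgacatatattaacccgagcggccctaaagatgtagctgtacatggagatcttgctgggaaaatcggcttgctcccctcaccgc
Pou3f3: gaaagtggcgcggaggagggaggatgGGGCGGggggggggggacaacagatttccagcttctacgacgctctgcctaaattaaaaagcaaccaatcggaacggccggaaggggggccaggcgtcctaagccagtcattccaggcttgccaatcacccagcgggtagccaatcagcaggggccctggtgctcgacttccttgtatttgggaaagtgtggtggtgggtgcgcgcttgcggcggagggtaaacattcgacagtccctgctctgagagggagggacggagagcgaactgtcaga
Meg3: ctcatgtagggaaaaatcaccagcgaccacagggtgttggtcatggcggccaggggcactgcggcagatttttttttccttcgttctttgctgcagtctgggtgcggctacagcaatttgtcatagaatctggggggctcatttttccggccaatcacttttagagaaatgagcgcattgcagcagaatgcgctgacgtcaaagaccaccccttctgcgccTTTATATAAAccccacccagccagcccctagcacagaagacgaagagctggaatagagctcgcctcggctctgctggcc
The E-box began at base 5 and TAATTA at base 76 of the Hand2 window, with GC boxes at bases 177 and 186. In the Pou3f3 window only a GC box was found, at base 27, and in the Meg3 window the letters TTTATA and TATAAA overlapped from base 222. Of all 32851 windows in the reference set, 17.2% held the E-box, 5.29% TAATTA, 13.6% TATAAA or TTTATA and 35.7% a GC box. Among the 11200 windows of protein-coding genes that reached 5 CPM, the shares were 10.9%, 2.46%, 6.56% and 64.7% in the same order. Those windows matched 78.8% of such genes. A match is a description of the letters and not a binding site. Windows of Hand1, Dlx3, Dlx4, Dlx5 and Dlx6 are not shown. Shares of motifs among the members are void, because windows matched only 72.8% of the protein-coding genes higher in the mandibular library and 61.7% of those higher in the maxillary library.

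Genes of the distal arch programme were mostly higher in the mandibular library. Of 16 tested genes of the endothelin and distal arch list, 10 were higher in the mandibular library and 0 in the maxillary library, against 1.83% and 0.895% of all genes. The median log2 difference of its 19 members at 1 CPM or more was 1.54, against -0.01 over all 15469 genes at that level. The list was drawn up with earlier results of these data known. Hand2 lies on chromosome 8 from 57320983 to 57324633. It stood at 0.309 CPM (lateral nasal), 0 (medial nasal), 1.30 (maxillary) and 101 CPM (mandibular), which is 5, 0, 20 and 1386 counts. The mandibular level was 77.9-fold the maxillary one (interval 50.3 to 128), and both nasal libraries lay below both arch libraries.

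The related gene Hand1, which acts with Hand2 in the distal arch, had 1 count in the maxillary library and stood at 8.33 CPM in the mandibular library, a ratio of 128 with a wide interval of 22.6 to 5108. Its nasal levels were 0 and 0.0757 CPM, so that it was at or near 0 outside the mandibular process. Hand2os1, the long noncoding RNA antisense to Hand2, had 1 count in the maxillary library against 20.5 CPM in the mandibular library. The noncoding RNA 5033428I22Rik, which starts 7485 bases beyond Hand2, likewise had 1 count in the maxillary library and 14.3 CPM in the mandibular library. The strand setting of the counting is not stated, so reads of Hand2 and Hand2os1, which overlap, may not have been kept apart.

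Dlx5 and Dlx6, the homeobox genes between the endothelin signal and Hand2, were present on both sides and differed less than Hand2 did. Dlx6 stood at 4.08 CPM (lateral nasal), 9.31 (medial nasal), 7.67 (maxillary) and 31.7 CPM (mandibular), a 4.14-fold difference between the arch libraries (interval 3.37 to 5.11). Dlx5 had 2.78, 6.96, 5.20 and 17.2 CPM in the same order, a 3.30-fold difference (2.55 to 4.31). In both genes the maxillary level lay between the nasal levels, and the mandibular library stood alone. Dlx6os1, whose gene overlaps Dlx6 on the other strand, reached 76.4 CPM in the mandibular library and 15.3 in the maxillary library. Dlx3, the next Dlx gene of the distal programme, stood at 6.30 CPM in the maxillary against 17.5 in the mandibular library. Dlx4, its neighbour in the genome, remained under the 5 CPM limit, at 0.260 and 3.80 CPM, with a log2 difference of 2.50. The pair that spans the whole arch, Dlx1 and Dlx2, was not called, with 60.4 and 83.4 CPM for Dlx1 and 11.9 and 13.1 CPM for Dlx2 in the maxillary and mandibular libraries.

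Further targets of the distal programme followed the same order. Gsc, a homeobox gene needed for the lower jaw and the tympanic ring, had 16.4 CPM in the maxillary against 48.8 in the mandibular library, with 27.2 in the lateral nasal and 5.83 in the medial nasal library. Pitx1, a homeobox gene of the mandible and hindlimb, stood at 10.8 CPM (lateral nasal), 11.8 (medial nasal), 15.1 (maxillary) and 124 CPM (mandibular), 8.17-fold higher than in the maxillary one (7.12 to 9.41). The other 3 libraries lay close together, and the mandibular library was set apart. Rgs5, a regulator of G protein signalling that stands in the same list, had 2.60 and 7.53 CPM. The signalling machinery upstream of these genes did not differ in the same way. Ednra, the endothelin receptor, stood at 72.0 CPM in the maxillary against 80.5 in the mandibular library, and Ece1, which cleaves the endothelin precursor, at 71.8 and 72.1 CPM. Edn1, the ligand, had 12 and 10 counts, too few for a comparison. Mef2c, a transcription factor upstream of Dlx5 and Dlx6 in this pathway, had 48.0 and 45.0 CPM.

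**Figure D1:**
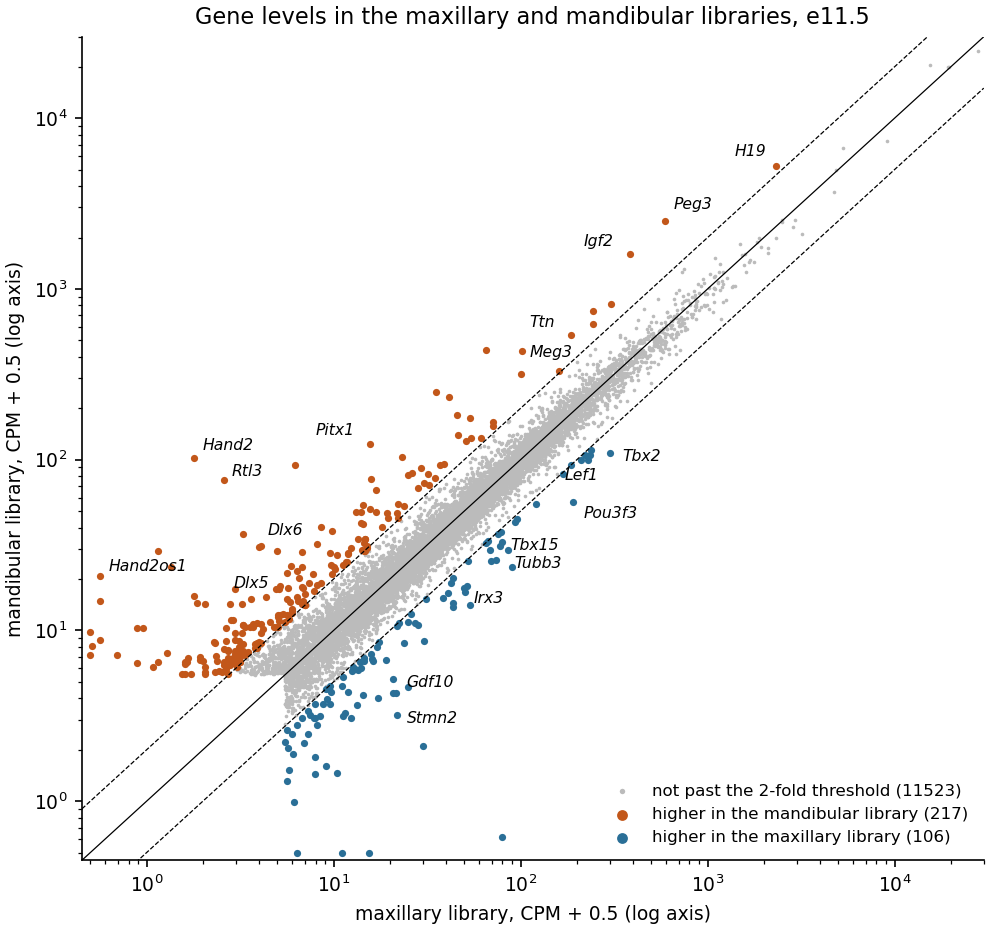
Each point is 1 of the 11846 genes that reached 5 CPM in either library, with the maxillary level on the horizontal and the mandibular level on the vertical axis, both as CPM + 0.5 on log axes; the solid line marks equal levels and the dashed lines a 2-fold difference. The 217 genes higher in the mandibular library include Hand2 at 1.30 against 101 CPM far from the rest, and the 106 higher in the maxillary library include Pou3f3 at 190 against 56.2 CPM.

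The maxillary side held fewer members, and several transcription factors were among them. Of 106 members higher in the maxillary library, 18 differed at least 4-fold, against 44 of the 217 higher in the mandibular library. Both numbers include entries with the uncertain counts described further on. Among the 18 these were mt-Co3 and mt-Nd3, for example, and among the 44 Gm28635 and Gm26718. Pou3f3, a POU homeobox gene needed for the upper part of the first arch skeleton, lies on chromosome 1 from 42695768 to 42703176. It stood at 23.6 CPM (lateral nasal), 148 (medial nasal), 190 (maxillary) and 56.2 CPM (mandibular), 3.38-fold higher in the maxillary than in the mandibular process (3.12 to 3.66). The medial nasal level was near the maxillary one and the lateral nasal level was below both arch libraries. Pantr1, a noncoding RNA that starts 926 bases away on the opposite strand, had 3.03, 17.5, 24.6 and 4.17 CPM in the same order and so kept the same ranks, apart from the lateral nasal and mandibular libraries lying close together.

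The Iroquois genes Irx3, Irx5 and Irx6, homeobox factors that stand together on chromosome 8, were higher in the maxillary library. Irx3 had 49.1 CPM in the maxillary against 17.1 in the mandibular library, a 2.87-fold difference (2.47 to 3.34). Irx5 had 50.1 and 16.4 CPM, or 3.06-fold (2.63 to 3.57). Irx6 was less abundant, at 5.13 and 0.804 CPM. The lateral nasal library was close to the maxillary level of all 3 genes, with 38.6, 41.6 and 4.64 CPM. Crnde, a noncoding RNA that starts 1505 bases from Irx5, was at 13.3 CPM in the maxillary against 6.07 in the mandibular library.

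T-box factors divided between the processes. Tbx2 was higher in the maxillary library, with 299 against 109 CPM, a 2.74-fold difference (2.59 to 2.91), and with nasal levels of 176 and 137 CPM in between. Tbx15, a factor of skeletal and dermal mesenchyme, stood at 16.3 CPM (lateral nasal), 6.36 (medial nasal), 77.0 (maxillary) and 30.8 CPM (mandibular), and thus was highest in the maxillary library and lowest in both nasal ones. On the mandibular side lay Tbx1, a factor of pharyngeal mesoderm and endoderm, with 1.10 CPM in the maxillary against 5.85 in the mandibular library, and Tbx4, with 2.47 and 8.26 CPM. Tbx2 and Tbx4 are neighbours on chromosome 11, 44474 bases apart, and differed in opposite directions. Of the 8 T-box genes tested, 2 were called on each side, against 1.83% (mandibular) and 0.895% (maxillary) of all genes. Tbx3, the close relative of Tbx2, was not called, at 111 and 79.2 CPM.

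Other factors higher in the maxillary library included Emx2, a homeobox gene (13.9 against 3.69 CPM), and Gata2, a zinc finger factor (5.59 against 1.39 CPM), whose nasal levels of 43.4 and 61.3 CPM were far above both arch libraries. Pax3, a paired-box gene of neural crest and muscle precursors, had 68.5 CPM in the maxillary against 29.1 in the mandibular library, with 156 CPM in the lateral nasal library. Pax1, known from the pharyngeal pouches and the skeleton, had 23.3 and 7.97 CPM. Glis3, a zinc finger factor, had 29.8 and 8.11 CPM. Among genes of oral mesenchyme and teeth, 2 of 11 tested were higher in the maxillary library, against 0.895% of all genes, and 0 in the mandibular library. These were Msx1, a homeobox gene of palate and tooth mesenchyme (236 and 113 CPM), and Osr2, a zinc finger factor of the palate shelves (25.4 and 11.9 CPM, with 3.34 and 4.54 CPM in the nasal libraries). Several factors of oral mesenchyme were not called. Barx1 stood at 118 CPM in both libraries, and Lhx8, with 120 CPM in the maxillary against 65.9 in the mandibular library, missed the 2-fold limit at a log2 difference of -0.86.

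Genes counted with the proximal arch did not as a group favour the maxillary process. Of 15 tested, Pou3f3, Irx3 and Irx5 were higher in the maxillary library, while Nr2f2, Tshz1 and Dlx1as were higher in the mandibular library. The shares over all genes were 0.895% maxillary and 1.83% mandibular, so that calls in both directions exceeded them. The median log2 difference of the list was 0.04. Nr2f2, an orphan nuclear receptor, had 45.9 CPM in the maxillary against 139 in the mandibular library, a 3.03-fold difference (2.77 to 3.30). Tshz1, a zinc finger gene needed for the middle ear and soft palate, had 53.9 and 134 CPM. Dlx1as is antisense to Dlx1, and its reads may not have been kept apart from that gene's.

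**Figure D2:**
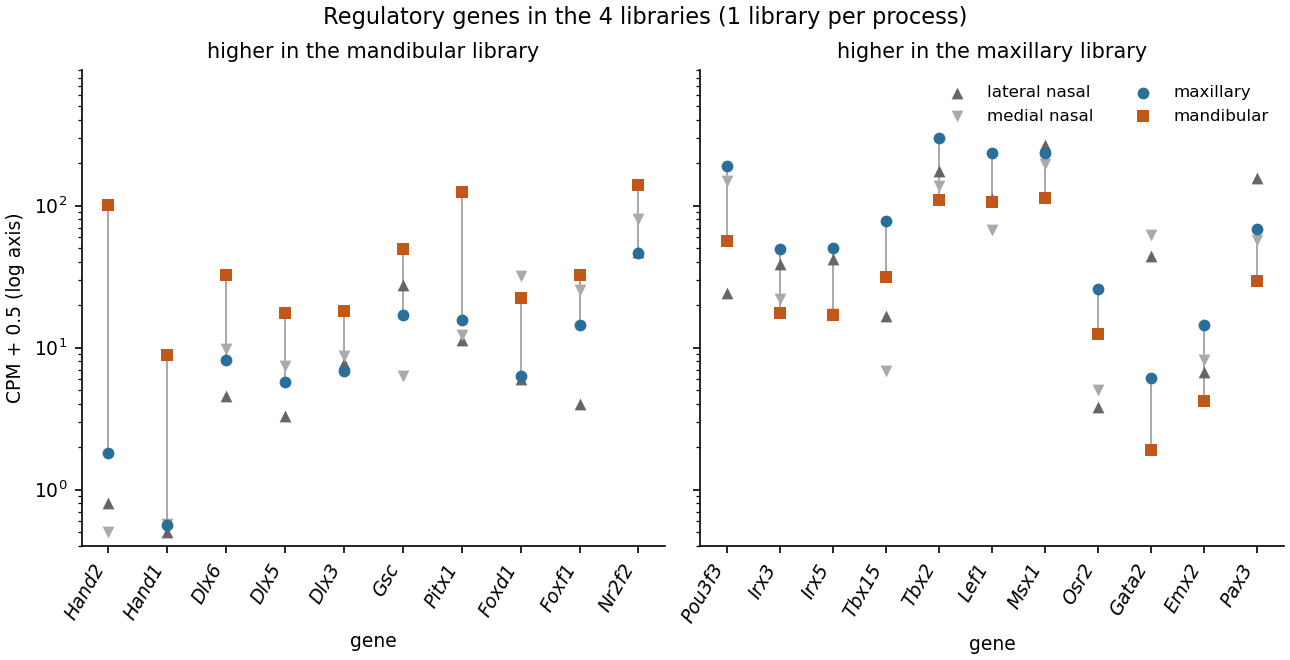
Levels of 21 transcription factor genes in the 4 libraries are plotted as CPM + 0.5 on a log axis, 1 symbol per library, with a line that joins the maxillary and mandibular levels; genes higher in the mandibular library are on the left and those higher in the maxillary library on the right. Hand2 ran from 1.30 to 101 CPM, while Tbx2 ran from 109 to 299 CPM, and the nasal libraries fell above, between or below the arch libraries depending on the gene.

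Forkhead genes were called in the mandibular direction alone, 5 of 15 tested, against 1.83% of all genes. The median log2 difference was 0.61 over 23 members at 1 CPM or more. Foxd1 had 5.85 CPM in the maxillary against 21.9 in the mandibular library and Foxd2 had 2.79 and 10.2 CPM. The other 3 lie together on chromosome 8. Foxf1, a target of hedgehog signalling in mesenchyme, stood at 3.53 CPM (lateral nasal), 24.8 (medial nasal), 13.98 (maxillary) and 31.8 CPM (mandibular). Foxc2 had 2.79 and 10.2 CPM and Foxl1 had 2.21 and 6.36 CPM in the maxillary and mandibular libraries. Fendrr, the noncoding RNA that starts 1276 bases from Foxf1, went with them at 2.14 and 8.11 CPM. In Foxd1, Foxf1 and Foxd2 the medial nasal library was nearer to the mandibular level and the lateral nasal library was not. Foxl2, by contrast, lay on the maxillary side below the limit, at 4.48 and 0.512 CPM, and the noncoding RNA beside it, Foxl2os, was called there, at 29.4 and 1.61 CPM.

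Hox genes, which the first arch lacks and the second arch expresses, were almost absent. Of 39 Hox genes, 22 had 0 counts in both arch libraries, and Hoxa2 was the only one to reach 5 CPM. Over all 43346 gene entries, 21747 had at least 1 count in the maxillary library and 21884 in the mandibular library. Hoxa2, the selector gene of the second arch, had 3 counts in the maxillary library and 91 in the mandibular library, or 0.195 and 6.65 CPM, a ratio of 34.1 (11.3 to 168), and 0 counts in both nasal libraries. The other Hox genes at 1 CPM or more in an arch library were Hoxa3, Hoxb2, Hoxd8 and Hoxd1. The summed level of the 7 second arch genes was 0.975 CPM in the maxillary against 10.5 CPM in the mandibular library, with Hoxa2 as the main part in the latter. Second arch tissue as the source of other mandibular members was not tested.

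Wnt signalling genes were called in both directions, 3 of 47 tested in the mandibular and 5 in the maxillary library. The shares over all genes were 1.83% and 0.895%, and the median log2 difference of the list was -0.12. Among the ligands, Wnt9b (41.7 and 18.3 CPM), Wnt10b (6.24 and 2.56) and Wnt11 (12.5 and 5.46) were higher in the maxillary library, and Wnt2b (4.68 and 11.8) in the mandibular library. Among the receptors, Fzd10 was higher in the maxillary library at 77.6 and 37.0 CPM, and Fzd4 and Fzd5 in the mandibular library. The mandibular levels of Fzd4 and Fzd5 were 45.2 and 9.93 CPM, against 21.5 and 4.55 CPM. Lef1, the transcription factor through which beta-catenin acts on target genes, lies on chromosome 3 from 131110471 to 131224356. It stood at 110 CPM (lateral nasal), 66.7 (medial nasal), 233 (maxillary) and 105 CPM (mandibular), 2.21-fold higher in the maxillary than in the mandibular process (2.08 to 2.35), and so was highest in the maxillary library with the other 3 well below. Apcdd1, a Wnt inhibitor that is itself a Wnt target, had 228 and 98.8 CPM, and Kremen2, a receptor for Dkk inhibitors, had 17.0 and 8.04 CPM. Axin2, the common target gene of the pathway, was not called, at 152 and 111 CPM. Its log2 difference was -0.45.

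BMP pathway genes were called mainly in the maxillary direction, 4 of 25 tested against 1, beside 0.895% and 1.83% of all genes. Gdf10, a ligand of the BMP family, had 14.1 CPM (lateral nasal), 2.57 (medial nasal), 21.1 (maxillary) and 3.80 CPM (mandibular), a 5.56-fold difference between the arch libraries (4.14 to 7.60). Id4 and Msx1, which respond to BMP, were also higher in the maxillary library. The member on the mandibular side was Chrdl1, a BMP antagonist, at 2.08 and 5.99 CPM. Bmp4 and Bmp7, the ligands themselves, had 34.3 and 29.1 CPM and 54.3 and 30.6 CPM and were not called.

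Retinoic acid genes gave 3 members of 16 tested, all of them higher in the maxillary library, against 0.895% of all genes. Aldh1a3, which makes retinoic acid, stood at 93.2 CPM (lateral nasal), 32.2 (medial nasal), 16.8 (maxillary) and 3.51 CPM (mandibular), so that the levels ran down in that order. Cyp26c1, which breaks retinoic acid down, had 7.41 CPM in the maxillary against 1.32 in the mandibular library, with 0.804 and 0.757 CPM in the nasal libraries. The binding protein Crabp1 had 210 and 99.6 CPM. The receptors Rara, Rarb and Rarg were not called. The largest of their log2 differences was the 0.07 of Rara, together with the -0.07 of Rarg.

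Hedgehog genes had 2 members of 14 tested, both higher in the mandibular library, against 1.83% of all genes. These were Foxf1 and Hhip, a hedgehog-binding inhibitor and target at 2.47 and 6.80 CPM. Ptch1, the receptor and main target gene, was not called at 144 and 233 CPM, nor was Gli1, a further target, at 47.1 and 47.4 CPM. The ligand Shh was under the limit at 1.73 and 4.09 CPM. FGF genes gave 0 members of 16 tested, with a median log2 difference of 0.14. Notch genes gave 1 of 16, the target Hey2, which was higher in the maxillary library at 73.0 against 25.4 CPM. At the shares over all genes, 1.83% mandibular and 0.895% maxillary, 0 or 1 called gene among 16 is no result about these 2 lists.

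**Figure D3:**
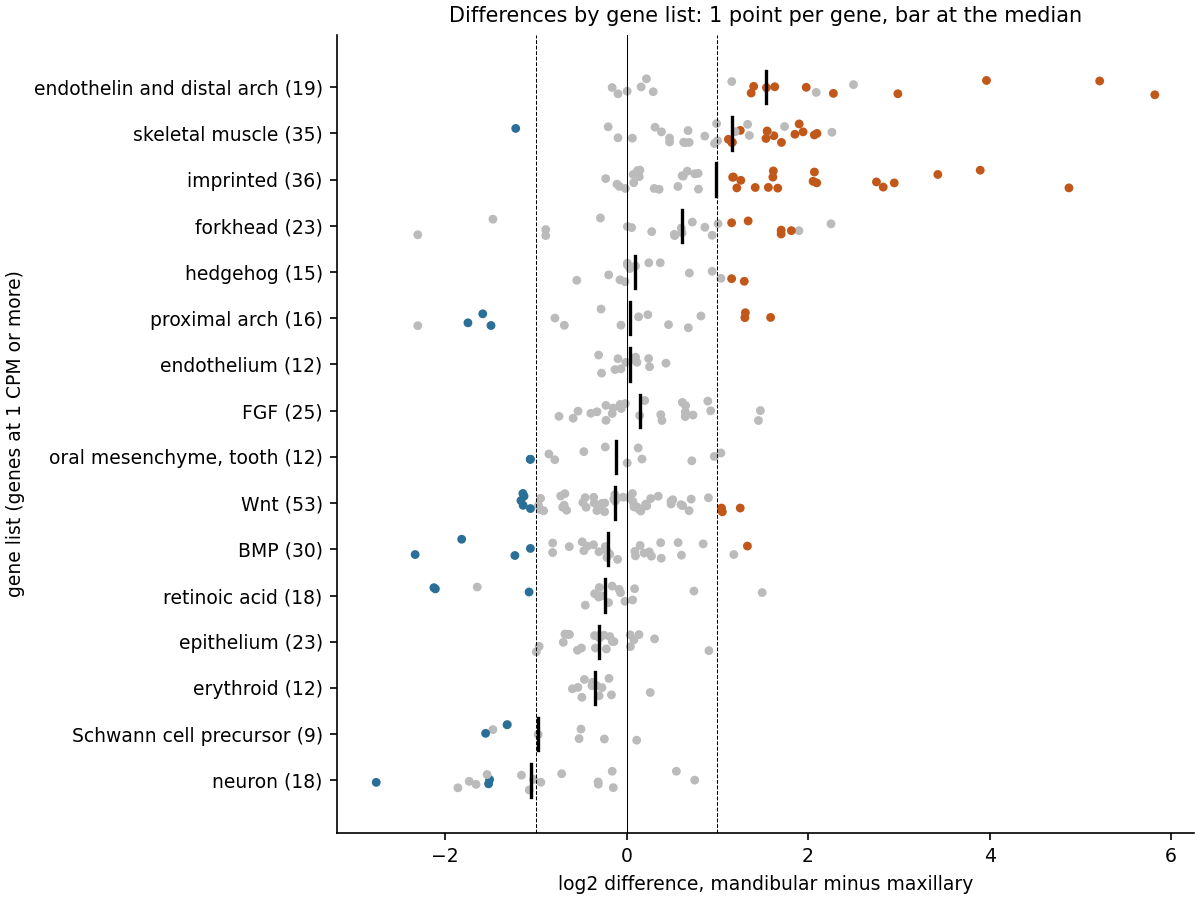
Each point is 1 gene of a list at 1 CPM or more in either library, placed by its log2 difference (mandibular minus maxillary), with members higher in the mandibular library in orange, those higher in the maxillary library in blue, other genes in grey, a black bar at the list's median and dashed lines at a 2-fold difference. Among the 16 lists plotted, which do not include the Hox and second arch lists, the medians ran from 1.54 for endothelin and distal arch genes to -1.05 for neuron genes, and those of the endothelium and proximal arch lists lay at 0.04.

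Of imprinted genes only the copy from one parent is active, and whether each listed gene is imprinted, in this tissue or at all, was not measured. By number, the imprinted list held more members than any other list used here. Shares of tested genes were larger in the skeletal muscle list, 13 of 18 mandibular, and the endothelin and distal arch list, 10 of 16. Of 36 genes of the imprinted list tested, 18 were higher in the mandibular library and 0 in the maxillary library. Over all genes the shares were 1.83% and 0.895%, and 32 of the 36 had a log2 difference above 0. The summed level of the list was 10260 CPM in the maxillary against 20738 CPM in the mandibular library. Members came from the paternally active genes, among them Igf2, Dlk1, Peg3, Plagl1, Magel2 and Rtl1, and from the maternally active genes, among them H19, Meg3, Rian, Mirg, Cdkn1c, Klf14 and Zim1. Igf2, a growth factor of the embryo, had 345 CPM (lateral nasal), 514 (medial nasal), 382 (maxillary) and 1591 CPM (mandibular), a 4.16-fold difference (4.04 to 4.28). H19, the noncoding RNA that shares its control region with Igf2, had 1952, 1775, 2334 and 5249.7 CPM in the same order. The 3 other libraries lay nearer to each other than to the mandibular library for both genes, and the mandibular library stood above them.

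The stretch of chromosome 12 from Dlk1 to Mirg, 109452823 to 109749460, spans 297 kb and held 8 members, all higher in the mandibular library with log2 differences from 1.61 to 2.83. Dlk1, a transmembrane protein related to the Notch ligands, stood at 20.9 CPM (lateral nasal), 46.1 (medial nasal), 34.6 (maxillary) and 249 CPM (mandibular), a 7.19-fold difference (6.56 to 7.89). Meg3, whose promoter is shown above, had 81.3, 136, 101 and 432 CPM. Rtl1, a gene derived from a retrotransposon, had 25.8 CPM in the maxillary against 83.0 in the mandibular library, and the noncoding RNAs Rian and Mirg had 243 and 744 CPM and 28.7 and 89.2 CPM. Genes of this domain that are active from the maternal copy and from the paternal copy thus lay on the same side.

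Peg3, a zinc finger gene, and its neighbours Zim1 and Usp29 on chromosome 7 were also higher in the mandibular library. Peg3 had 499.6 CPM (lateral nasal), 830 (medial nasal), 591 (maxillary) and 2485 CPM (mandibular). Zim1 differed by more, with 5.72 CPM in the maxillary against 92.2 in the mandibular library, or 16.1-fold (13.0 to 20.2). Plagl1, a zinc finger gene known to regulate other imprinted genes, had 64.8 and 440 CPM, with 111 and 189 CPM in the nasal libraries. Rtl3, a gene of retrotransposon origin on the X chromosome that stands in the list, showed the largest difference in it, with 2.08 CPM in the maxillary against 75.2 in the mandibular library. Its place in the list does not show that Rtl3 is imprinted. Cdkn1c, an inhibitor of the cell cycle, had 305 and 816 CPM, and it was the only called gene of the cell cycle list. Not every gene of the imprinted list took part. Grb10 stood at 1881 CPM in the maxillary against 1987 in the mandibular library, Gnas at 737 and 910, Nnat at 497 and 541, and Snrpn at 21.1 and 17.9 CPM. In 16 of the 18 members both nasal libraries lay nearer to the maxillary level.

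**Figure D4:**
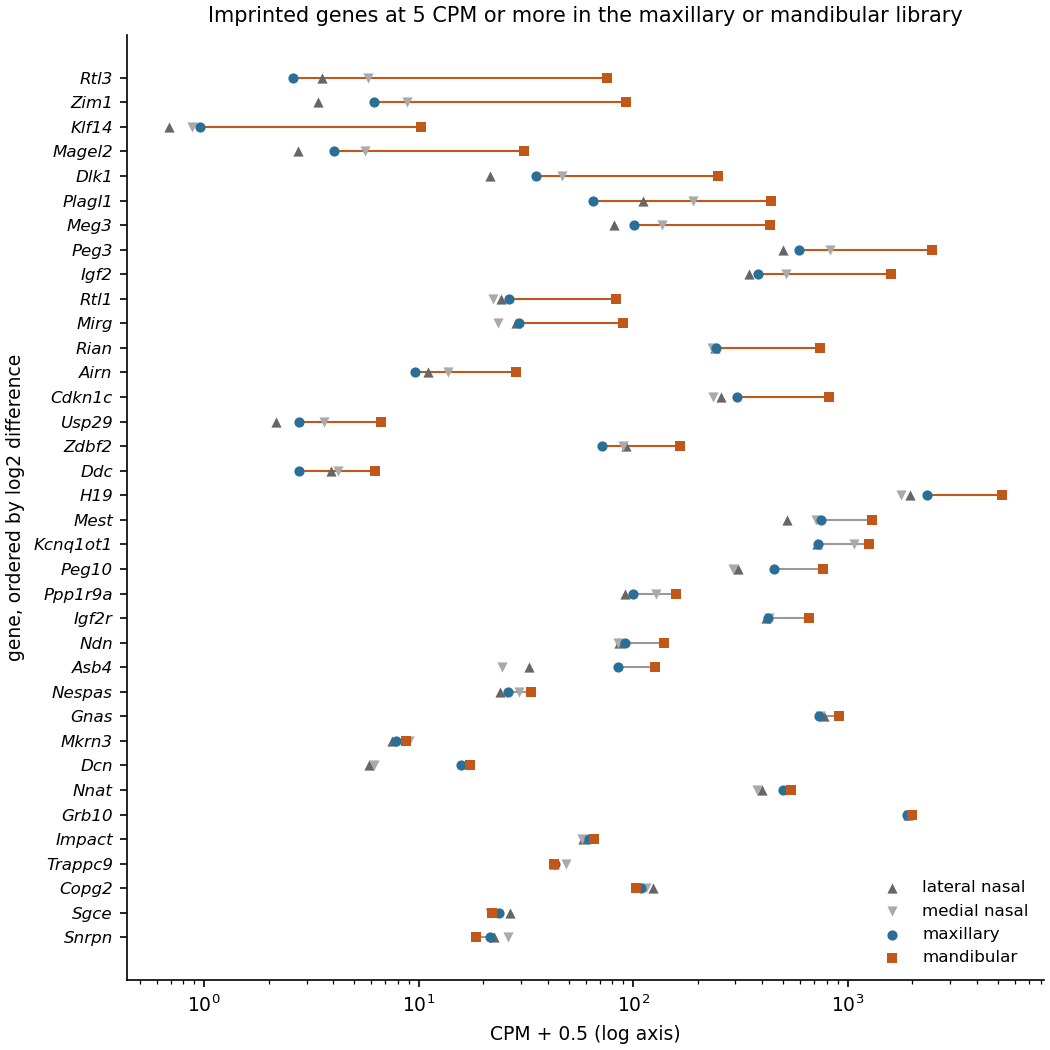
The 36 genes of the imprinted list at 5 CPM or more in either arch library are shown in order of their log2 difference, with 1 symbol per library at its CPM + 0.5 on a log axis and a line from the maxillary to the mandibular level, orange where the difference passed 2-fold. The lines reach from Rtl3 at the top, 2.08 to 75.2 CPM, to genes with nearly equal levels such as Grb10, 1881 and 1987 CPM.

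Skeletal muscle genes had the next largest number of members, with 13 of 18 tested higher in the mandibular library and 1 in the maxillary library. Over all genes the shares were 1.83% and 0.895%. Myog and Myod1, the factors that start muscle differentiation, were higher in the mandibular library, with 5.13 and 21.2 CPM for Myog and 1.82 and 7.89 CPM for Myod1. Their nasal levels were at most 0.309 CPM, so that the maxillary library held a clear but lower level. Of the sarcomere genes, Ttn had 28.5 CPM (lateral nasal), 12.1 (medial nasal), 185 (maxillary) and 538 CPM (mandibular), a 2.91-fold difference (2.78 to 3.04). Neb had 24.4 and 80.9 CPM, Myh3 had 23.2 and 52.7 CPM, and Actc1 had 13.9 and 41.7 CPM in the maxillary and mandibular libraries. All 13 had both nasal libraries nearer to the maxillary level. The member in the other direction was Pax3, which is also a gene of the neural crest. Lbx1, a factor of migrating muscle precursors such as those of the tongue, had 26 counts in the mandibular library and 0 in each of the other 3 libraries.

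Genes of nerves went the other way. Of 8 tested neuron genes, 3 were higher in the maxillary library, against 0.895% of all genes, and 0 in the mandibular library. The median log2 difference was -1.05 over 18 genes at 1 CPM or more. Stmn2, a protein of growing axons, stood at 27.7 CPM (lateral nasal), 39.3 (medial nasal), 21.2 (maxillary) and 2.70 CPM (mandibular), 7.83-fold higher in the maxillary than in the mandibular process (5.57 to 11.3). Tubb3, a tubulin of neurons, had 84.8 and 29.2 CPM, and Gap43, a protein of growth cones, had 51.3 and 17.7 CPM. For these 3 genes both nasal libraries were nearer to the maxillary level, and the mandibular library was the lowest of the 4. Nefl and Nefm, the neurofilament genes, were not called at 22.1 and 17.7 CPM and 20.6 and 12.4 CPM, and Dcx had 12.3 and 21.1 CPM, the opposite order. Of 7 Schwann cell precursor genes tested, 2 were higher in the maxillary library, Fabp7 (6.76 and 1.97 CPM) and Ngfr, the low-affinity neurotrophin receptor (38.1 CPM in the maxillary library, 2.54-fold the mandibular level). Sox10, the defining factor of these cells, had 6.37 CPM in the maxillary library and a log2 difference of -0.97. Bdnf, a neurotrophin that supports sensory neurons, had 26.8 CPM in the maxillary against 10.5 in the mandibular library. How much nerve tissue each dissection held was not tested.

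Of 39 axon guidance genes tested, 2 were higher in the mandibular and 3 in the maxillary library. Over all genes the shares were 1.83% and 0.895%. The netrin receptors went in opposite directions. Unc5c had 53.3 CPM in the maxillary against 174 in the mandibular library, a 3.27-fold difference (3.02 to 3.55), and Unc5d had 12.2 and 5.63 CPM. The semaphorin Sema3e (9.03 and 3.22 CPM) and the semaphorin receptor Plxna4 (74.7 and 36.4 CPM) were higher in the maxillary library, and the ephrin receptor Ephb1 (3.57 and 9.21 CPM) in the mandibular library. Of 33 collagen and matrix genes, Col9a1, a collagen of cartilage, was higher in the mandibular library at 36.7 and 92.9 CPM. The proteoglycan gene Lum (93.1 and 42.5 CPM) and the collagen genes Col8a1 and Col6a6 were higher in the maxillary library. Col9a1 was also the only called gene among 9 tested for cartilage and bone.

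Members with large differences stood outside these lists as well. Syt6, a synaptotagmin, stood at 0.309 CPM (lateral nasal), 0.605 (medial nasal), 0.650 (maxillary) and 28.9 CPM (mandibular), a 44.4-fold difference (23.9 to 93.4). Gpr50, an orphan receptor related to the melatonin receptors, had 0.845 and 23.1 CPM, and Nr5a2, a nuclear receptor, had 2.79 and 36.0 CPM. Dio2, which activates thyroid hormone, had 1.30 and 15.5 CPM, Cited1, a transcriptional co-activator, had 3.57 and 30.8 CPM, and Apob, an apolipoprotein, had 0.390 and 9.80 CPM. Meox1, a mesodermal homeobox gene, had 1.56 and 13.7 CPM. In all of these the mandibular library was the highest of the 4. On the maxillary side, Kcna4, a potassium channel, had 8.58 CPM in the maxillary against 1.10 in the mandibular library, Tmem30b had 20.2 and 3.80 CPM, and Cpxm2, a carboxypeptidase-like protein, had 11.9 and 2.56 CPM with 63.6 and 26.9 CPM in the nasal libraries. Chodl, a lectin-like membrane protein, had 12.8 and 3.14 CPM, and Avpr1a, a vasopressin receptor, 10.7 and 2.63 CPM. The most abundant protein-coding members were Peg3, Igf2, Cdkn1c and Amot on the mandibular side and Tbx2, Msx1, Lef1 and Apcdd1 on the maxillary side. Amot, which acts in the Hippo pathway, had 242 and 619 CPM.

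Some members rest on counts that the quantification divided differently in its second estimate. In 15 of the 217 and 11 of the 106 members the posterior mean count, a second estimate that the same files hold, was at least 10% off the expected count in at least 1 library. The mitochondrial gene mt-Co3 had 79.1 CPM in the maxillary against 0.115 in the mandibular library, a log2 difference of -7.02, but with the posterior mean count the log2 difference was -0.06. For mt-Nd3 it was -4.47 and -1.63, and for mt-Atp6 1.14 and 0.37. The pseudogenes Rpl30-ps9 and Gm10132 had 0 counts in the mandibular library and belong to the same class. Gm20388, a gene model from 119910841 to 124345722 on chromosome 8, overlaps Foxf1, Foxc2, Foxl1, Fendrr, Cdh15 and Tubb3, and its own call is uncertain.

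Biotype and position were not part of the rule. Of 308 long noncoding RNAs tested, 29 were higher in the mandibular library (9.42%) and 7 in the maxillary library (2.27%), and of 159 entries of the TEC class, unspliced loci whose status awaits experiments, 15 were higher in the mandibular library (9.43%) and 0 in the maxillary library. Among 11037 protein-coding genes the shares were 1.47% and 0.852%. The median log2 difference was -0.03 for protein-coding genes, 0.21 for long noncoding RNAs and 0.55 for TEC entries, so that noncoding entries as a whole were shifted toward the mandibular library. Among protein-coding genes the median log2 difference went from -0.15 among the 2761 genes with the shortest genomic span to 0.09 among the 2759 with the longest. The part of this shift in the members was not tested. On the X chromosome, 18 of 422 tested genes were higher in the mandibular library and 2 in the maxillary library. Over all 11846 tested genes the shares were 1.83% and 0.895%.

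Some members lay close to each other in the genome. Of the 318 members with coordinates, 73 lay within 100 kb of another member that differed in the same direction. They made 63 pairs, 58 of them higher in the mandibular and 5 in the maxillary library, and 12 further pairs differed in opposite directions. How often other tested genes lie this close was not counted, so no share over all genes stands beside these numbers. The pairs include those of the uncertain maxillary entry Gm20388 with genes it overlaps. Its pairs with Foxf1, Foxc2, Foxl1, Fendrr and Cdh15 were in opposite directions, and its pair with Tubb3 was on the maxillary side. Many of the mandibular pairs came from the same few places, which were the imprinted domains of Dlk1 and Meg3, of Igf2 and H19 and of Peg3 and Zim1, and the groups of Dlx5 and Dlx6, of Hand2 and of Foxf1. On the maxillary side the pairs included Pou3f3 with Pantr1, Irx5 with Crnde, and Emx2 with its antisense RNA Emx2os. Overlapping genes made up 11 of the 63 pairs.

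The nasal libraries placed the members differently on each side. Of the 217 genes higher in the mandibular library, 129 (59.4%) had both nasal libraries nearer to the maxillary level on the log2 scale, 30 (13.8%) had both nearer to the mandibular level and 58 were split. Of the 5284 other tested genes with a mandibular level above the maxillary one, 24.6% had both nasal libraries nearer to the maxillary level and 28.9% nearer to the mandibular level. Of the 106 genes higher in the maxillary library, 50 (47.2%) had both nasal libraries nearer to the maxillary and 36 (34.0%) nearer to the mandibular level, against 32.9% and 20.1% of 6239 other genes. The maxillary or mandibular level enters both sides of these shares, and they were not tested. Among the mandibular members, 48 had both nasal libraries below both arch libraries, among them Hand2, Pitx1, Syt6, Gpr50, Myog and Ttn, and 4 had both above both arch libraries. Of the 5284 other genes with a higher mandibular level, 667 had both below and 922 had both above. Among the maxillary members, 24 had both nasal libraries above both arch libraries, among them Aldh1a3, Cpxm2, Gata2, Stmn2 and Tubb3, and 12 had both below, among them Tbx15, Osr2, Cyp26c1, Wnt11 and Col6a6. Of the 6239 other genes with a higher maxillary level, 1088 had both above and 635 had both below. The members with both below thus held a share close to that of other genes. Where the split mandibular members were concerned, the medial nasal library alone was nearer to the mandibular level in 54 and the lateral nasal library alone in 4. Of the 15 TEC entries, 10 were of the first kind.

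**Figure D5:**
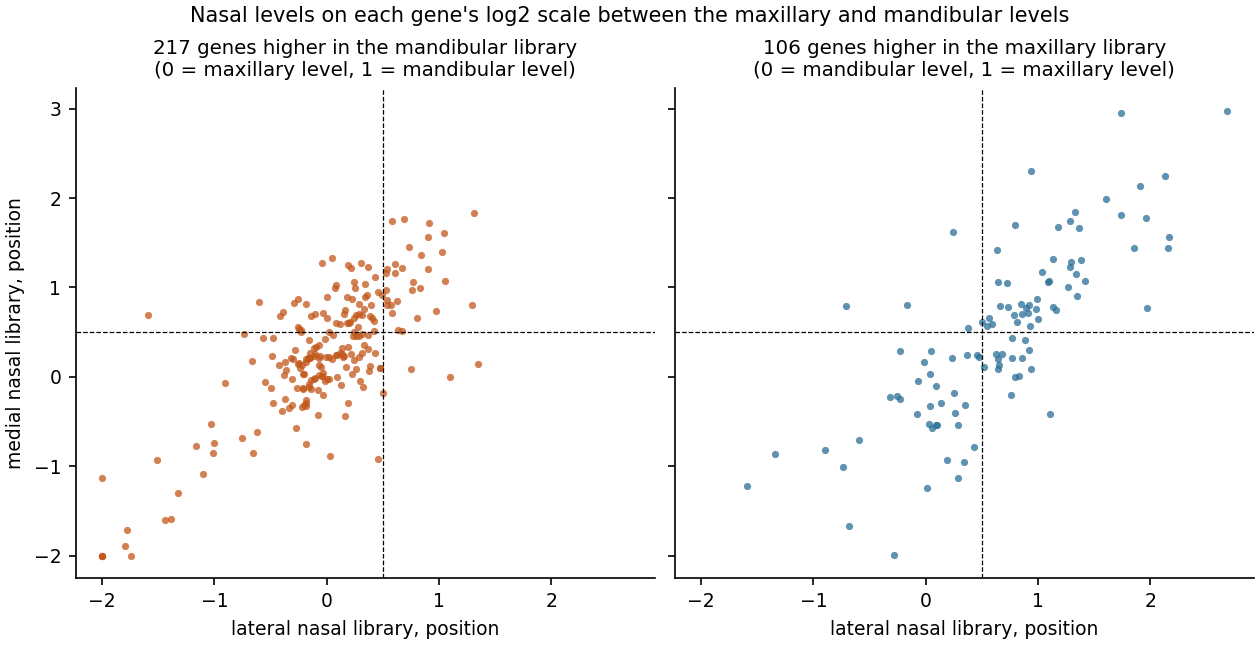
Each point is 1 member, placed by the lateral nasal (horizontal) and medial nasal (vertical) level on a log2 scale on which 0 is the lower and 1 the higher of its maxillary and mandibular levels; dashed lines mark the midpoint of 0.5, and the 5 mandibular members below -2 on an axis are drawn at the edge. Of the 217 mandibular members on the left, 129 lie below the midpoint on both axes, and of the 106 maxillary members on the right, 50 lie above it on both.

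The members nearest to the limit show how gradual it was. Just inside lay Meox2 with 6.50 CPM in the maxillary against 13.5 in the mandibular library and, on the other side, Phactr1 with 8.58 and 4.02 CPM. Just outside lay Gfra2 with 3.57 and 7.60 CPM and Tfap2a with 6.76 and 3.14 CPM. The lower end of the counting interval was at least 2-fold for 138 of the 217 mandibular and 55 of the 106 maxillary members. On the TPM scale, which corrects for transcript length, 176 and 74 members were at least 2-fold apart in the same direction and 1 member, Slc26a7, had a difference of the opposite sign (log2 -0.07 against 1.28 in CPM).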

How the data were processed

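The analysis used bulk RNA-seq of the maxillary and mandibular processes at e11.5, together with the lateral and medial nasal processes, each measured in 1 library. Per the labels, libraries were made with a stranded total RNA kit after removal of ribosomal RNA. The study's methods and processing notes name single-end reads of 50 bp, STAR, mm10, GENCODE M4 and RSEM 1.4.1 in a pipeline for 1 replicate. Whether the counting used strand is not given in the sources used here. The expected counts were estimated by the authors with RSEM, which divides reads that match several genes, and were deposited without normalization. The TPM values and posterior mean counts deposited by the authors come from the same run, and TPM corrects for transcript length.

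Expected counts of the 43346 mouse gene entries were divided by their library total to give CPM. The 96 spike-in entries and 26248 entries that carry only a number were left out. They held 1 to 5 counts per library. GENCODE M21 gave the symbol, the biotype and the position of each gene on GRCm38, the build of mm10. Folds carry an exact (Clopper-Pearson) 95% interval of the ratio of 2 counts, which covers counting error only, since no replicate exists and no test against a spread could be made. A count was treated as uncertain where the posterior mean differed from it by 10% or more.

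The members and the 35 gene lists were chosen with earlier results of these data known, and so support nothing on their own. List medians were taken over genes at 1 CPM or more in either arch library. The text names the 15 protein-coding genes with the largest difference in each direction, the 6 most abundant, the 4 long noncoding RNAs with the largest difference, up to 5 called and 3 other genes of each list, the 6 markers and the 3 genes nearest to the limit on each side. Other named genes were chosen after their values were seen, as neighbours or as further members of a list. Some genes that this rule takes are not reported here. The division of protein-coding genes by genomic span was also chosen after the data had been seen.

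Alternatives were edgeR 4.0.16 and DESeq2 1.42.0 scaling factors, TPM, posterior mean counts, rounded counts, a pseudocount of 0.1 or 2, no minimum level or one of 1 or 20 CPM, a 3-fold limit, the lower interval end as limit, protein-coding genes alone and removal of uncertain counts. The call rule and the interval were tested on counts drawn from the maxillary library with counting error only. Variation between embryos, dissections or libraries was not part of those draws. Computations used Python 3.11.15, NumPy 2.4.6, pandas 2.3.3, SciPy 1.17.1 and R 4.3.3.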

Additional observations from a re-analysis of the deposited data

How the results depend on the processing

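Scaling by edgeR or DESeq2 factors gave 219 mandibular and 107 maxillary members, and no alternative reversed the sign of a named called gene apart from Slc26a7, which TPM placed at a log2 difference of -0.07. Limits on level and on fold moved the counts. The numbers of mandibular and maxillary members were 503 and 265 with no minimum, 437 and 215 at 1 CPM, 89 and 50 at 20 CPM, 87 and 30 at 3-fold, and 138 and 55 where the lower interval end had to reach 2-fold. Members with both nasal libraries nearer to the maxillary level numbered 253 and 125 with no minimum, 223 and 100 at 1 CPM, 63 and 21 at 20 CPM, and 62 and 16 at 3-fold. On the maxillary side they were also 31 with a pseudocount of 2 and 23 with the lower interval end. With TPM in place of CPM throughout, 188 and 100 genes were called, of which 101 and 51 were members, since the minimum of 5 then fell on other genes. With the minimum kept on CPM, 176 and 74 of 197 and 78 were shared. Posterior mean counts gave 211 and 105, pseudocounts of 0.1 and 2 gave 240 and 124, and 163 and 73. Leaving out uncertain counts gave 207 and 99, and protein-coding genes alone 176 and 97. No paired analysis was possible because each process had 1 library. Embryo, dissection and library cannot be told apart from the process, and intervals cover counting error only.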

Other observations

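Genes of some tissues next to the first arch were found at low levels in the libraries. Lens and retina genes were low and mostly on the maxillary side. Cryaa, a crystallin of the lens, had 12.7 CPM in the lateral nasal library, 4.94 in the maxillary library and 0 counts in both the medial nasal and the mandibular library. Pax6, a factor of the eye and nasal placodes, stood at 3.18 CPM in the maxillary and at 0.365 CPM in the mandibular library, below its nasal levels of 16.2 and 10.8 CPM. The summed level of the 17 eye genes was 27.3 CPM in the maxillary library, against 16.7 CPM in the mandibular one, and the median log2 difference of the 8 genes at 1 CPM or more was -0.97. Prox1 was the only called gene of the list and lay on the mandibular side, at 3.18 against 9.94 CPM.

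Lists for growth, metabolism and stress are set beside the shares over all 11846 tested genes, 1.83% mandibular and 0.895% maxillary. At those shares, 0 or 1 called gene in a list of this size is no result about its genes. Of 27 cell cycle genes tested only Cdkn1c was called, and the median log2 difference of the list was -0.07. Of 20 glycolysis and hypoxia genes 0 were called, with a median of -0.22. Of the 15 mitochondrially encoded genes, 2 were called in each direction, 13 had a log2 difference above 0 and the median was 0.49, with summed levels of 9252 CPM (maxillary) and 10688 CPM (mandibular). All of these called entries have uncertain counts. With the posterior mean count the log2 differences were -0.06 for mt-Co3 and 0.37 for mt-Atp6, and 1.52 for mt-Nd4l and -1.63 for mt-Nd3. Of 7 immediate early and stress genes 0 were called, with a median of 0.03. Of 3 leukocyte genes tested 0 were called, and the median over 9 genes at 1 CPM or more was 0.16. The 4 melanocyte genes at 1 CPM or more had a median of -0.41 and 0 called members. Of 5 tested genes of branchiomeric and cardiac progenitors Tbx1 alone was called, on the mandibular side, and of 3 genes tested for pharyngeal endoderm, thyroid and tongue Pax1 alone, on the maxillary side. The median log2 difference of the latter list was nevertheless 0.58 over 10 genes at 1 CPM or more. Under the 5 CPM limit, Nkx2-5 had 0 counts in the maxillary against 39 in the mandibular library, Foxa1 had 1 and 30, Nkx2-3 had 3 and 35, and Foxa2 had 1 and 22. The 9 pituitary and oral roof genes were all below 1 CPM in both arch libraries.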
